A study of Homo sapiens with 2 samples.

Results

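The genes described here are 9 innate sensors of nucleic acids and microbial products, TLR2, TLR3, TLR4, NOD1, NOD2, DDX58 (the gene of RIG-I, RIGI in current annotation), IFIH1 (MDA5), AIM2 and ZBP1, and MYD88, an adaptor of most TLRs, counted with them as 10 sensor genes. They were taken by symbol, and all 10 were found among the 36601 genes listed for the series. The samples are 2 single-cell RNA libraries from colon organoids grown from 1383D6, an established line of human induced pluripotent stem (iPS) cells. The 3CK organoids were kept for 8 days in the presence of IL-1β, TNF-α and IFN-γ. The CNT organoids were read as untreated from the sample title and the protocol, since both samples carry the same treatment text, and their time in culture is not stated there. Both were derived along the same route, through Activin A and FGF2 and then, embedded in Matrigel, a colonic mixture that held EGF, Forskolin, PD98059 and the DNA methylation inhibitor 5-Aza-2'-Deoxycytidine, so the control carries those exposures too. The series title presents the organoids as a model of ulcerative colitis, and the comparison asks which sensor transcripts differ after exposure to inflammatory cytokines. With 1 library per group from 1 line there is no replicate, no test was made, and every interval below is a 95% interval for counting error only.

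Innate sensors detect molecules that mark infection or damage. Toll-like receptors (TLRs) read lipids and nucleic acids at the cell surface or in endosomes, NOD proteins read fragments of bacterial cell walls in the cytosol, RIG-I and MDA5 bind viral RNA, and AIM2 and ZBP1 bind DNA and Z-form nucleic acids. In the intestine these receptors are carried by epithelial cells and by stromal and immune cells, and many of their genes are known to be interferon-responsive. MYD88 links most TLRs, and also the receptor of IL-1, to NF-κB.

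The unit throughout is the unique molecular identifier (UMI), summed over cells and given as CPM, the usual scaling of counts by the total of the same cells, which counts 3' ends and is not divided by gene length, so levels of different genes are not ranked. After filtering, 2487 CNT cells with 101831571 UMIs and 1398 3CK cells with 91860414 UMIs remained, and the libraries shared 0 cell barcodes. The median cell held 28911 UMIs in CNT and 62746 in 3CK. Epithelial cells (EPCAM at least 2 UMIs per 10000) numbered 1660 in CNT and 1016 in 3CK. Mesenchymal cells (COL1A1, COL1A2 and COL3A1 together at least 5 per 10000, EPCAM under 1) numbered 574 and 124, and 253 and 258 cells met neither definition. The samples are titled as epithelial cells, so the mesenchymal cells, 23.1% of the kept cells in CNT and 8.87% in 3CK, go beyond that label. In the epithelial class the intestinal markers CDX2 (80.6 and 83.3 CPM in CNT and 3CK) and VIL1 (130 and 29.3 CPM) were present, beside the hepatic marker TTR at 64857 and 19491 CPM. In sums over cells, fewer cells carrying a transcript and less RNA per cell cannot be told apart.

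For 9 of the 10 genes the RefSeq table (GRCh38.p14) held the sequence around the start site, 10 windows in all, and the 250 bases before the start were searched on both strands for the consensus letters of 3 elements. The elements were the ISRE bound by interferon-activated factors, the GAS element (TTCNNNGAA), and the NF-κB site, and their letters occurred in 3.02%, 6.57% and 0.527% of 35116 windows of that length. Matches lay in 5 of the 9 genes: ISRE letters in 3 (AIM2, IFIH1, MYD88), GAS letters in 2 (TLR3, MYD88) and NF-κB letters in 2 (IFIH1, DDX58). Below are the stretches of the 3 genes with large differences between the libraries whose matches lie outside or mostly outside annotated exons, 5′ to 3′ on the gene's own strand, with the matched letters in capitals.
IFIH1, minus strand, chr2:162318696-162318843: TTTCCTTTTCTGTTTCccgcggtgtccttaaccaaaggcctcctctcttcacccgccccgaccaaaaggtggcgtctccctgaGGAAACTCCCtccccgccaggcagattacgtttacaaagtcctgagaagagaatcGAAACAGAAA
AIM2, minus strand, chr1:159076912-159076991: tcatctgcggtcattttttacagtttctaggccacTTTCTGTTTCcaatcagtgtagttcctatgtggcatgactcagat
DDX58, minus strand, chr9:32526228-32526307: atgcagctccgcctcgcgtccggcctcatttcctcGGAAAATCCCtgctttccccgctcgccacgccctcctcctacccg
The IFIH1 stretch holds 2 overlapping ISRE matches that begin at positions -159 and -153, counted from the start site with -1 as the base before it. It also holds NF-κB letters at -76 and another ISRE match at -21. The AIM2 ISRE match begins at -190 and the DDX58 NF-κB match at -76. In MYD88 an ISRE match at -61 overlaps a GAS match at -67, and TLR3 has GAS letters at -178 and -50. The windows of TLR2, TLR4, NOD1 and NOD2 held none of these letters. These matches describe the sequence only, and no binding was measured.

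DDX58, the sensor of short and 5'-triphosphate RNA (ENSG00000107201, chr9:32455302-32526208), was higher in the cytokine-treated library in every class of cells. Over all kept cells its UMIs numbered 1934 (CNT) and 12698 (3CK), or 19.0 CPM (interval 18.2 to 19.9) and 138 CPM (136 to 141). The log2 ratio of 3CK to CNT was 2.86 (2.79 to 2.93), a 7.28-fold difference. In epithelial cells the level was 16.4 CPM without and 136 CPM with cytokines, a log2 ratio of 3.05 (2.96 to 3.13). In mesenchymal cells it was 21.8 and 84.1 CPM, a log2 ratio of 1.95 (1.78 to 2.12). The difference between libraries was therefore larger in epithelial cells, by 1.10 on the log2 scale (0.91 to 1.29).

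IFIH1, whose product senses long double-stranded RNA (ENSG00000115267, chr2:162267074-162318684), showed the same arrangement with a larger ratio. Its UMIs numbered 460 (CNT) and 6602 (3CK), or 4.52 and 71.9 CPM, a log2 ratio of 3.99 (3.86 to 4.13). In epithelial cells it stood at 4.07 and 77.3 CPM, 19.0-fold higher in 3CK, and in mesenchymal cells at 6.26 and 35.2 CPM, 5.63-fold higher. The epithelial log2 ratio exceeded the mesenchymal one by 1.76 (1.41 to 2.10).

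AIM2, the cytosolic sensor of double-stranded DNA that assembles an inflammasome (ENSG00000163568, chr1:159061599-159187843), was counted 392 times in CNT and 3719 times in 3CK. These counts are 3.85 and 40.5 CPM, a log2 ratio of 3.39 (3.24 to 3.55). In CNT the epithelial level was low, 2.42 CPM against 7.53 CPM in mesenchymal cells. In 3CK the classes were closer, at 39.1 and 46.1 CPM. The log2 ratio was 4.02 (3.80 to 4.24) in epithelial and 2.61 (2.34 to 2.89) in mesenchymal cells.

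ZBP1, the sensor of Z-form nucleic acids that engages RIPK3 (ENSG00000124256, chr20:57603846-57620576), was close to undetected without cytokines. All CNT cells together held 3 UMIs, in 3 different cells, whereas 3CK held 661 UMIs in 291 cells, or 0.0295 and 7.20 CPM. The log2 ratio was 7.93, with a wide interval of 6.38 to 10.21 set by the CNT count. Epithelial cells carried 1 UMI in CNT and 539 in 3CK, and mesenchymal cells 2 and 13. The ratios were 9.19 (6.71 to 14.50) and 3.81 (1.67 to 7.00) on the log2 scale. Without barcodes that held a UMI of a leukocyte gene (PTPRC, SPI1, CSF1R or CD163), CNT epithelial cells had no ZBP1 UMI and the epithelial log2 ratio was at least 6.84.

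**Figure D1:**
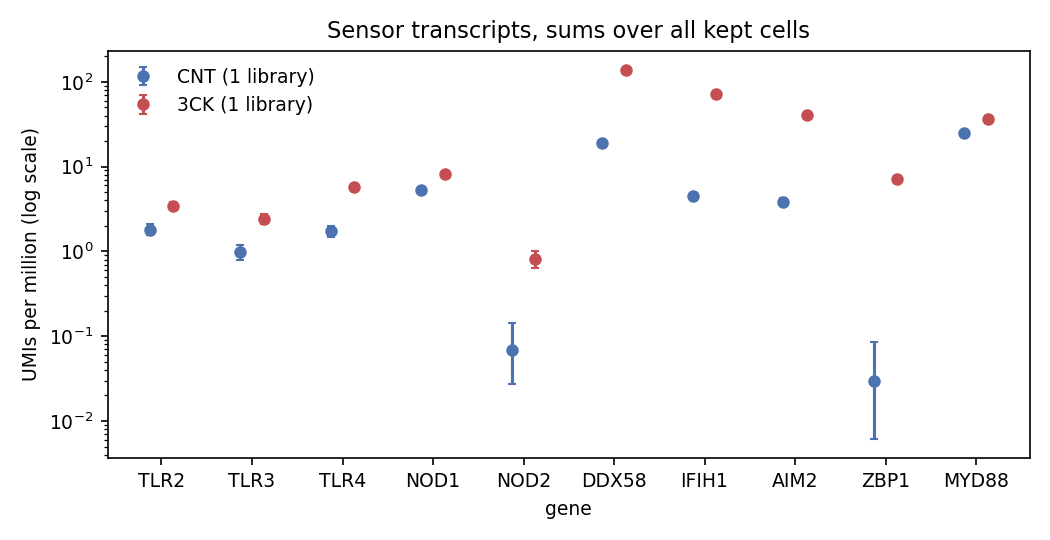
CPM of each sensor gene summed over all kept cells of CNT (2487 cells) and 3CK (1398 cells) on a log axis, with exact Poisson intervals for counting error. ZBP1, IFIH1, NOD2 and AIM2 stand furthest apart between the libraries, and MYD88 and NOD1 lie closest together.

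TLR4, the receptor for bacterial lipopolysaccharide (ENSG00000136869, chr9:117704175-117724735), was counted 176 times in CNT and 529 times in 3CK. Its level was 1.73 and 5.76 CPM, a log2 ratio of 1.74 (1.49 to 1.99). In epithelial cells the count was 61 UMIs without cytokines (0.801 CPM) and 307 with them (4.38 CPM), a log2 ratio of 2.45 (2.05 to 2.87). In mesenchymal cells it was 5.39 and 12.2 CPM, a log2 ratio of 1.17 (0.78 to 1.57). TLR4 was thus higher in 3CK in both classes, and more so in epithelial cells, by 1.28 (0.72 to 1.83). The mesenchymal value depended on which cells were counted. In 3CK, 43.2% of the mesenchymal TLR4 UMIs lay in the 29 of 124 cells with a UMI of PTPRC, SPI1, CSF1R or CD163. In CNT it was 13.2%, in 28 of 574 cells. Such cells held 30.4% of all mesenchymal UMIs in 3CK and 10.1% in CNT. For the other sensor genes their part in 3CK ran from 7.69% (ZBP1) to 38.6% (NOD1 and IFIH1). Without those cells the mesenchymal log2 ratio was 0.93. The 10 cells with the most TLR4 UMIs held 56.8% of them in 3CK and 31.1% in CNT. With the TLR4 UMIs of these cells taken off and the totals kept, the mesenchymal log2 ratio was 0.50. As 10 cells are a larger part of 124 (3CK) than of 574 (CNT), no conclusion is drawn from it.

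In that same class the summed level of the 13 leukocyte markers was 58.5 CPM for CNT and 225 CPM for 3CK. It ranged from 41.4 to 101 CPM over the 3 classes of CNT and from 108 to 225 CPM over those of 3CK. SPI1, a myeloid transcription factor, was at 0.458 and 13.5 CPM in mesenchymal cells, the pan-leukocyte gene PTPRC at 0.560 and 3.62 CPM. TYROBP, a signalling adaptor of myeloid cells, was at 27.1 and 87.9 CPM. Other markers were under 1 CPM in both libraries: CD163 and CD79A each stood at 0.356 CPM without cytokines and 0.110 CPM with them, CSF1R at 0.305 and 0.439 CPM and ITGAM at 0.102 and 0.110 CPM, all from 7 or fewer UMIs. At least 1 CPM was reached by 3 of the 13 markers in CNT and 6 in 3CK, while NKG7 was at 0 in this class of both libraries and CD3E in that of 3CK. In epithelial cells PTPRC was at 0.236 and 0.0856 CPM and SPI1 at 0.0919 and 0.242 CPM. CD163 was higher there, at 3.98 and 0.656 CPM, and so was CSF1R, at 3.99 and 1.37 CPM. Barcodes with a UMI of PTPRC, SPI1, CSF1R or CD163 also made up 356 of 1660 epithelial cells in CNT and 109 of 1016 in 3CK. They held 37.8% and 15.6% of the epithelial UMIs. Whether the marked barcodes are leukocytes was not tested. The part of leukocyte RNA in the sensor values was not tested beyond leaving these cells out.

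TLR3, the endosomal receptor for double-stranded RNA (ENSG00000164342, chr4:186068911-186088073), was mostly mesenchymal in CNT. Epithelial cells held 17 UMIs (0.223 CPM) and mesenchymal cells 75 UMIs (3.82 CPM). In 3CK these values were 117 UMIs (1.67 CPM) and 60 UMIs (6.58 CPM). The log2 ratio of 3CK to CNT was 1.30 (0.95 to 1.65) over all cells, 2.90 (2.16 to 3.73) in epithelial and 0.79 (0.27 to 1.30) in mesenchymal cells. The epithelial ratio was the larger by 2.12 (1.23 to 3.00). With each cell given equal weight the ratios of the classes were closer, 1.56 in epithelial and 1.41 in mesenchymal cells, and with epithelial cells limited in collagen the epithelial ratio was 4.06. The 9 mesenchymal markers summed to 518 CPM in the epithelial barcodes of CNT and to 98.0 CPM in those of 3CK, and their part in the TLR3 values was not tested beyond that limit. Without the leukocyte-marked barcodes the value over all cells was 0.92, below the 2-fold boundary.

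TLR2, which reads bacterial lipoproteins together with TLR1 or TLR6 (ENSG00000137462, chr4:153684070-153706260), was counted 184 times in CNT and 316 times in 3CK. The level was 1.81 and 3.44 CPM, a log2 ratio of 0.93 (0.66 to 1.20). Epithelial and mesenchymal cells gave similar ratios, 0.83 (0.52 to 1.15) and 0.91 (-0.03 to 1.84). The mesenchymal estimate rests on 23 and 20 UMIs, and the interval of the difference between classes, -0.99 to 0.84, is too wide to rank them.

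NOD1, a cytosolic receptor for a peptidoglycan fragment (ENSG00000106100, chr7:30424527-30478784), differed least among the receptors. Its UMIs numbered 538 and 748, or 5.28 and 8.14 CPM, a log2 ratio of 0.62 (0.46 to 0.79). Epithelial cells stood at 3.94 and 6.62 CPM (log2 ratio 0.75, 0.54 to 0.96), and mesenchymal cells at 8.75 and 9.11 CPM (0.06, -0.34 to 0.44). In mesenchymal cells no difference between the libraries was detectable at this depth. NOD2, the receptor for muramyl dipeptide (ENSG00000167207, chr16:50693588-50733077), was rare: 7 UMIs in CNT and 75 in 3CK, 0.0687 and 0.816 CPM. Its log2 ratio was 3.57 (2.46 to 4.93) over all cells and 2.82 (1.57 to 4.35) in epithelial cells, from 6 and 39 UMIs. In mesenchymal cells 0 UMIs were found without cytokines and 16 with them, a log2 ratio of at least 3.52 against a floor of 3 UMIs in CNT. NOD2 thus differed between the libraries by a large factor at a level that stayed below 1 CPM over all cells.

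MYD88, the adaptor (ENSG00000172936, chr3:38138552-38143024), was well detected in both libraries and differed little. Its UMIs numbered 2503 and 3302, or 24.6 and 35.9 CPM, a log2 ratio of 0.55 (0.47 to 0.62). The ratio was 0.47 (0.39 to 0.55) in epithelial cells, from 28.0 and 38.7 CPM, and 0.66 (0.39 to 0.92) in mesenchymal cells, from 14.2 and 22.4 CPM. The difference between classes was -0.19 (-0.46 to 0.08). With each cell given equal weight the mesenchymal ratio was 0.0015. Over all kept cells MYD88 had the smallest ratio of the 10 genes.

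Counted by size, with at least 2-fold and at least 1 CPM in the higher library, 6 of the 9 sensor genes that reached 1 CPM were higher in 3CK over all kept cells (TLR3, TLR4, DDX58, IFIH1, AIM2 and ZBP1) and 0 were lower. Over all 17523 genes that reached 1 CPM, 6.96% were higher and 11.3% lower by the same rule, with a median log2 ratio of -0.05 against 1.74 for the sensors. TLR3 and ZBP1, at 0.982 and 0.0295 CPM in CNT, reached 1 CPM only in 3CK and so could not be counted as lower. In epithelial cells the count was again 6 of 9 higher and 0 lower, against 8.48% higher and 12.1% lower of 16809 genes, and the medians were 2.90 and 0.01. In mesenchymal cells 6 of 10 were higher and 0 lower, against 6.05% and 16.7% of 17353 genes, with medians of 1.56 and -0.21. There NOD2, a lower bound from 0 and 16 UMIs, was counted with ZBP1, from 2 and 13 UMIs, and TLR3 was not. Both counted genes reached 1 CPM only in 3CK. With each gene's UMIs in its 10 highest barcodes taken off, and the totals kept, the mesenchymal count was 3. In 3CK all 13 ZBP1 UMIs lay in 8 cells and 87.5% of the 16 NOD2 UMIs in 10, so neither could stay counted.

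**Figure D2:**
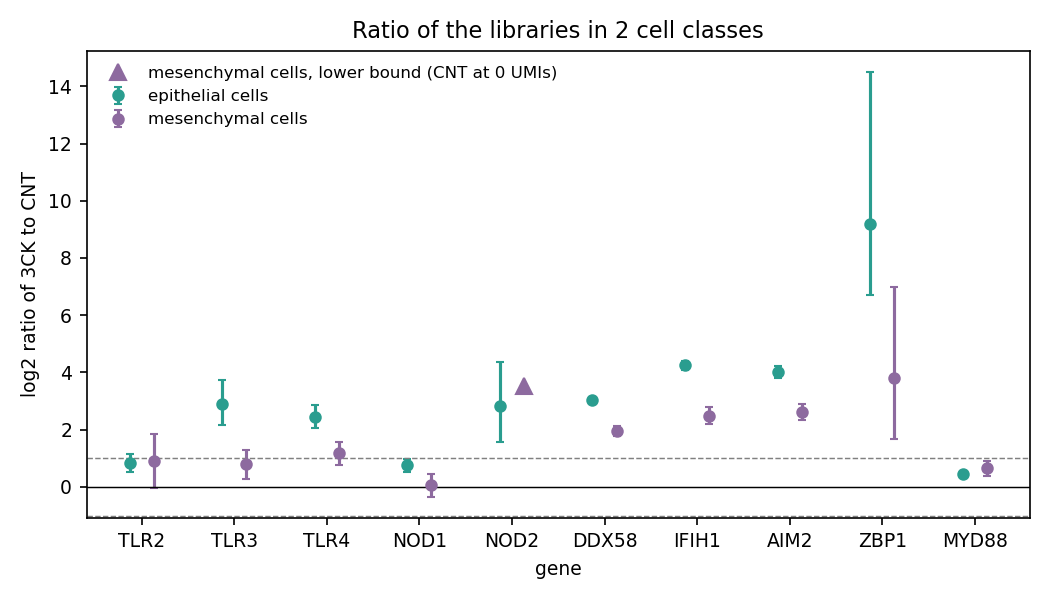
Log2 ratio of 3CK to CNT for each sensor gene in epithelial cells (1660 CNT, 1016 3CK) and mesenchymal cells (574 CNT, 124 3CK), with 95% counting intervals; the triangle is a lower bound for NOD2, and dashed lines mark 2-fold. The epithelial value lies above the mesenchymal one for TLR3, TLR4, NOD1, DDX58, IFIH1, AIM2 and ZBP1, and the intervals of the classes overlap for TLR2, MYD88 and, slightly, ZBP1.

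The class that carried more of each transcript was compared within each library. In CNT, 0 of the 8 sensor genes that reached 1 CPM were at least 2-fold higher in epithelial than in mesenchymal cells and 4 were lower (TLR3, TLR4, NOD1 and AIM2), against 15.1% and 26.1% of 18033 genes. In 3CK, 2 of 10 were higher (IFIH1 and ZBP1) and 3 lower (TLR3, TLR4 and NOD2), against 16.8% and 19.0% of 17177 genes. TLR3 and TLR4 in CNT and NOD2 in 3CK reached 1 CPM only in mesenchymal cells. The largest contrast in CNT was TLR3, 17.1-fold higher in mesenchymal cells (log2 ratio of epithelial to mesenchymal -4.10, -4.95 to -3.32), and in 3CK this stood at 3.94-fold (-1.98, -2.44 to -1.51). TLR4 was 6.74-fold higher in mesenchymal cells in CNT and 2.78-fold in 3CK, and AIM2 3.12-fold and 1.18-fold. NOD1 was 2.22-fold and 1.38-fold higher there.

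For the RNA sensors the levels summed over each whole class gave opposite orders of the classes in the 2 libraries. DDX58 had an epithelial to mesenchymal log2 ratio of -0.41 (-0.57 to -0.25) in CNT and 0.69 (0.58 to 0.80) in 3CK. IFIH1 had -0.62 (-0.93 to -0.31) and 1.13 (0.97 to 1.30). The CNT value of DDX58 was -0.15 without the leukocyte-marked barcodes. ZBP1 in 3CK was 5.39-fold higher in epithelial cells (2.43, 1.64 to 3.35), and its 1 and 2 UMIs in CNT gave no ratio. MYD88 was higher in epithelial cells in both libraries, at 0.98 (0.80 to 1.17) and 0.79 (0.59 to 1.00), and TLR2 at 0.60 (-0.05 to 1.30) and 0.52 (-0.14 to 1.26). The cells of neither class held some of the highest levels, with DDX58 at 42.4 and 192 CPM in CNT and 3CK, NOD1 at 11.0 and 15.9 CPM, and TLR2 at 4.33 and 5.94 CPM.

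Epithelial cells were further divided by marker level into cells past a threshold on cycling genes (138 in CNT, 72 in 3CK), other cells with TTR at least 100 per 10000 UMIs (TTR-high; 1354 and 489) and the remainder (TTR-low; 168 and 455). These are ranges of marker level, not cell types, and TTR itself was lower in 3CK. The ratio of 3CK to CNT for DDX58, IFIH1 and AIM2 was large in each range. DDX58 stood at 13.9 and 89.1 CPM (CNT and 3CK) in TTR-high cells, and at 38.2 and 199 CPM in TTR-low cells, with log2 ratios of 2.68 (2.57 to 2.79) and 2.38 (2.22 to 2.55). IFIH1 had 3.69 and 58.8 CPM in TTR-high cells and 7.39 and 99.5 CPM in TTR-low cells. AIM2 had 2.01 and 30.8 CPM against 5.60 and 49.4 CPM. These 3 genes were thus higher in TTR-low than in TTR-high cells within each library.

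The ratios of DDX58, IFIH1, AIM2, TLR3 and NOD1 were smaller in both TTR ranges than over all epithelial cells. In TTR-high and TTR-low cells IFIH1 had 3.99 and 3.75 against 4.25, and AIM2 3.94 and 3.14 against 4.02. For TLR4 and NOD2 this held in the TTR-low range only, and for TLR2 and MYD88 in the TTR-high range only. TLR4 had 0.451 and 2.91 CPM in TTR-high cells (log2 ratio 2.69, 2.09 to 3.33), but 3.34 and 5.74 CPM in TTR-low cells (0.78, 0.20 to 1.41). The TTR-low level of CNT rests on 28 UMIs in 12 of 168 cells, 11 of them in 1 cell. NOD1 had 3.13 and 3.68 CPM in TTR-high cells (0.23, -0.09 to 0.55) and 8.23 and 10.2 CPM in TTR-low cells (0.32, -0.07 to 0.71). Both NOD1 intervals include 0, whereas the interval over all epithelial cells did not. ZBP1 was found in each range of 3CK, at 5.53 CPM in TTR-high, 10.8 CPM in TTR-low and 5.26 CPM in cycling-marker cells, against 0, 1 and 0 UMIs in CNT. In cycling-marker cells the median depth was only 1677 UMIs in CNT and 4438 in 3CK, and IFIH1 there rests on 11 and 303 UMIs (4.90, 4.04 to 5.92).

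**Figure D3:**
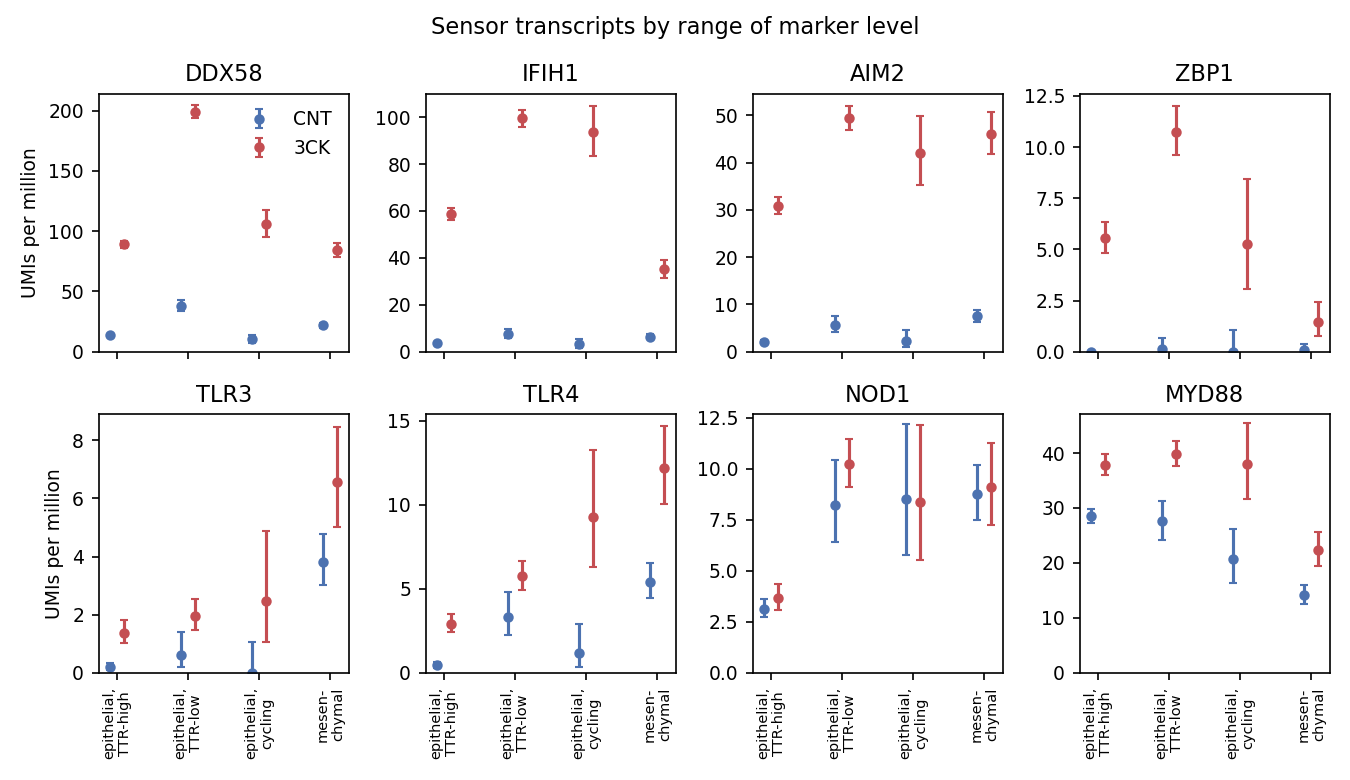
CPM of 8 sensor genes in 4 ranges of marker level (epithelial TTR-high, TTR-low and cycling; mesenchymal) of CNT and 3CK, with exact Poisson intervals, each panel on its own axis from 0. DDX58 reaches 199 CPM in TTR-low cells of 3CK, and the NOD1 intervals of the 2 libraries overlap in each range.

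To compare how many cells carried each transcript, cells with at least 5000 UMIs (1544 in CNT, 1063 in 3CK) were thinned to 5000 UMIs each, which left out 943 and 335 shallower cells. DDX58 was seen in 9.84% of thinned CNT cells and 44.7% of 3CK cells, a difference of 34.8 points (31.5 to 38.1). IFIH1 was seen in 1.88% and 27.2%, and AIM2 in 3.30% and 19.3%. MYD88 was seen in 9.84% and 15.5%, and NOD1 in 3.30% and 4.33%. ZBP1 was in 0 of 1544 CNT cells and in 3.20% of 3CK cells. The CNT interval allows a share of cells with a UMI at this depth of up to 0.239%. TLR4 was in 0.453% and 3.39%, TLR2 in 0.712% and 1.51%, TLR3 in 0.583% and 1.22%, and NOD2 in 0 and 1 cell. The differences for TLR2, TLR3, NOD1 and NOD2 had intervals that included 0. Thinned to 10000 UMIs, only that of NOD1 still did (-0.67 to 3.62). There the differences were 2.11 points (0.91 to 3.51) for TLR2, 1.52 (0.45 to 2.78) for TLR3 and 0.90 (0.40 to 1.71) for NOD2. Without thinning, DDX58 was seen in 838 of 2487 CNT cells and 1056 of 1398 3CK cells, and ZBP1 in 3 and 291.

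By class, DDX58 was in 8.10% of thinned CNT and 43.4% of 3CK epithelial cells, and in 10.3% and 31.8% of mesenchymal cells. IFIH1 was in 1.88% and 28.1% of epithelial and 2.19% and 15.9% of mesenchymal cells, and AIM2 in 2.07% and 18.7% against 6.56% and 17.8%. The epithelial share of 3CK was above the mesenchymal one by 11.7 points (1.71 to 20.4) for DDX58 and 12.2 points (3.56 to 18.8) for IFIH1. For AIM2 the interval was -7.78 to 7.67 points. In CNT the differences for DDX58, -2.21 points (-6.31 to 1.18), and IFIH1, -0.30 points (-2.66 to 1.21), had intervals that included 0. At this depth these shares gave no order of the classes there. Thinned to 10000 UMIs, the CNT difference was -5.23 points (-9.01 to -2.27) for IFIH1 and -3.40 points (-8.48 to 1.11) for DDX58. TLR4 was in 1.25% of CNT and 8.41% of 3CK mesenchymal cells, against 0.188% and 2.45% of epithelial cells. Genes of the other class were seen in barcodes of both classes. The epithelial gene CLDN4 was in 1.25% and 2.80% of mesenchymal cells (38.9% of epithelial cells in CNT). CDX2 was in 11.9% and 17.8% of mesenchymal cells and the epithelial keratin gene KRT19 in 66.6% and 61.7%. Each sensor share of mesenchymal cells was at or under that of CDX2, except DDX58 in 3CK. LUM was in 26.1% and 9.66% of epithelial cells, whose definition sets no limit on collagen, and TTR in 96.6% of CNT mesenchymal cells. Whether this was RNA from other cells was not tested. The median depth before thinning was 37785 and 72198 UMIs in epithelial cells and 23450.5 and 65363 in mesenchymal cells. The ZBP1 and TLR2 shares of 3CK mesenchymal cells, 0.935% or 1 cell of 107 each, are below the CLDN4 share there and are not read as expression. In epithelial cells the mesenchymal gene COL6A3 was in 1.98% and 1.16%, and the shares of TLR3 in both libraries and of TLR2, TLR4 and IFIH1 in CNT were at or under it. COL6A3 stood at 213 CPM in CNT mesenchymal cells, so its share gives no background level for these rarer genes either.

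**Figure D4:**
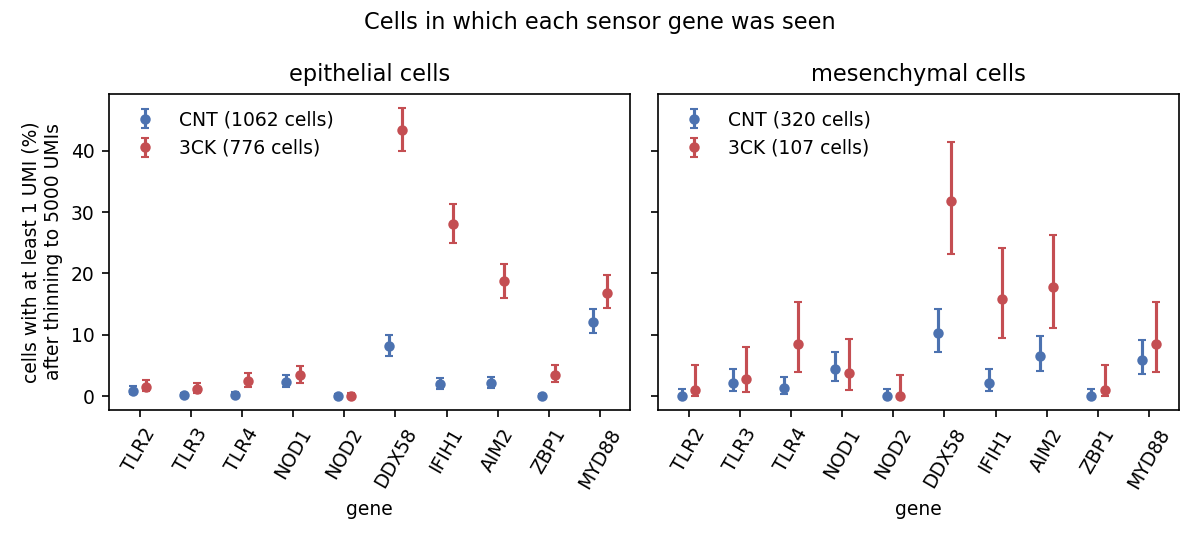
Percentage of cells with at least 1 UMI of each sensor gene after thinning to 5000 UMIs, in epithelial (1062 CNT, 776 3CK) and mesenchymal cells (320 and 107), with exact binomial intervals. DDX58, IFIH1 and AIM2 have the largest gaps between the libraries, and the mesenchymal intervals are the wider ones.

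Counted per cell, the same thinned UMIs gave more of the 10 sensor genes in 3CK. After thinning, the mean number of the 10 genes with a UMI was 0.299 in CNT and 1.20 in 3CK. Without MYD88 the means were 0.201 and 1.05. They follow from the shares of the single genes, of which DDX58, IFIH1 and AIM2 differed most. No count over other genes is set beside them. None was seen in 74.1% of CNT cells and 29.2% of 3CK cells. A UMI of 3 or more sensors was found in 4 of 1544 cells without cytokines (0.259%, 0.0706 to 0.662) and 127 of 1063 with them (11.9%, 10.1 to 14.1). The share with 3 or more was 12.1% in epithelial and 4.67% in mesenchymal cells of 3CK, and 8.12% in TTR-high and 16.8% in TTR-low cells. At this depth a cell can carry a transcript and show no UMI of it.

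**Figure D5:**
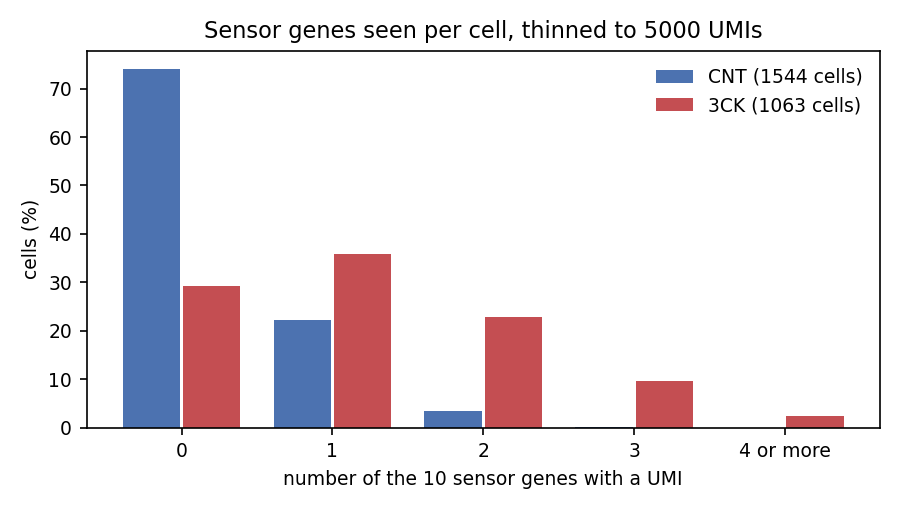
Percentage of thinned cells with 0, 1, 2, 3 or 4 or more of the 10 sensor genes detected, for CNT (1544 cells) and 3CK (1063 cells). The largest CNT bar is 0 sensors (74.1%) and the largest 3CK bar is 1 sensor (35.9%).

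Profiles over 8 strata (the 4 marker ranges in each library) were compared by the root mean square distance between centred log2(CPM + 1) values, among 12239 genes with at least 10 CPM in a stratum. These distances describe 2 libraries and carry no test. Closest to DDX58 were HERC6 (distance 0.25), ATP10A and SAMD9, and closest to IFIH1 were APOL2 (0.23), HCP5 and MX1. AIM2 was closest to the chemokine gene CXCL2 (0.17), the necroptosis effector MLKL (0.18) and TYMP, and ZBP1 to CP (0.20), HLA-DOB and GBP6. CXCL2 had 15.8 and 158 CPM in epithelial and 31.7 and 195 CPM in mesenchymal cells of CNT and 3CK, in each case higher in 3CK and higher in mesenchymal cells, as AIM2 was. TLR4 was closest to CEBPB (0.26), MSN and LYN, and TLR3 to SLC16A3 (0.15), AL137186.2 and PTGS2. SLC16A3 had 26.5 and 67.7 CPM in epithelial and 92.5 and 165 CPM in mesenchymal cells. NOD1 was closest to KDM2B (0.09), TBK1 and NUP153, TLR2 to ELF4 (0.12), MOV10 and UGCG, MYD88 to GMIP (0.11), SDSL and GPR108, and NOD2 to ADM (0.24), CCDC88B and NKAPL. Among the sensors themselves the nearest pairs were TLR2 with MYD88 (0.31), TLR2 with NOD2 (0.40) and TLR3 with TLR4 (0.43), and the farthest was NOD1 with IFIH1 (1.81). TLR2 and NOD2 had small profiles at these low levels, where adding 1 CPM flattens the differences.

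The surrounding pathway was read through 50 further genes of sensing and its signalling, of which 40 reached 1 CPM over all kept cells. Of these 40, 18 were at least 2-fold higher in 3CK and 0 lower, against 6.96% and 11.3% of all genes, with a median log2 ratio of 0.82 against -0.05. In epithelial cells 20 of 39 were higher and 0 lower, against 8.48% and 12.1%. In mesenchymal cells 15 of 42 were higher and 3 lower (TLR1, TLR6 and NAIP), against 6.05% and 16.7%. Of these 3, TLR1 (-3.46 to 0.06) and TLR6 (-2.58 to 0.31) had intervals that included 0. Both reached 1 CPM only in CNT. Of the genes counted as higher, PYHIN1 reached 1 CPM only in 3CK over all kept cells. In epithelial cells this held for IRAK3, DHX58, CGAS and PYHIN1, and in mesenchymal cells for NLRP3, PYHIN1 and RIPK3.

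In RNA sensing, 4 of 6 genes were at least 2-fold higher over all cells. DHX58, a RIG-I-like protein without a signalling domain, had 1.95 CPM in CNT and 9.51 CPM in 3CK (log2 ratio 2.28), and the RNA editor ADAR 62.8 and 142 CPM (1.17). RNF135, a ubiquitin ligase for RIG-I, had the smallest ratio, 0.23. In DNA sensing, 3 of 4 measured genes were higher: IFI16 (43.7 and 187 CPM, 2.10), PYHIN1 (4.23) and CGAS. STING1 (listed as TMEM173), the adaptor downstream of cGAS, was not among them at -0.10, and TREX1 was listed at 0 in both libraries. In the inflammasome and necroptosis group, 3 of 5 were higher, with the inflammasome adaptor PYCARD at 67.4 and 179 CPM (1.41) and the pore-forming MLKL at 1.64 and 20.8 CPM (3.67). RIPK1 was at 25.8 and 37.6 CPM (0.55).

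Among NLR proteins and partners, 2 of 6 were higher. NLRC5, a regulator of MHC class I genes, had 2.53 and 66.5 CPM (4.71) and RIPK2, the kinase that acts after NOD1 and NOD2, 20.6 and 82.2 CPM (1.99). NAIP, a receptor for bacterial flagellin, was at -0.22. Of the TLR co-receptors and adaptors, 2 of 8 were higher, among them TICAM1, the adaptor of TLR3, at 14.5 and 49.1 CPM (1.76). CD14, a lipopolysaccharide co-receptor, was at 4.07 and 2.59 CPM (-0.65), and SIGIRR at 62.5 and 80.3 CPM (0.36). In epithelial cells LY96, the partner of TLR4 in lipopolysaccharide binding, was counted too, at 1.85 and 8.32 CPM (2.17), against 20.7 and 20.3 CPM in mesenchymal cells.

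Of the kinases and ligases 3 of 8 were higher, with IRAK2 at 7.37 and 35.7 CPM (2.28), while IRAK4 (0.04) and TRAF3 (0.77) were under 2-fold. Of the transcription factors, IRF7 was at 21.2 and 77.7 CPM (1.87) and IRF3 at 35.6 and 66.0 CPM (0.89). Of 7 other TLRs only TLR1 reached 1 CPM, at 1.00 and 0.718 CPM (-0.48).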

How the data were processed

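The 2 single-cell libraries (10x Genomics 3' v3.1) were measured. For each gene and barcode the authors deposited a UMI count without normalisation, made with Cell Ranger 7.1.0 on GRCh38 per the submitters' processing notes; the annotation is not given in the sources used here. Gene positions come from a GENCODE annotation of GRCh38. In it TLR4, NOD2, DDX58 and AIM2 overlap another gene on the same strand, so their counts may be split.

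Barcodes with at least 500 genes and at most 20% mitochondrial UMIs were kept, and doublets scored with Scrublet (scanpy 1.11.5, Python 3.11.15) were removed at 0.8% per 1000 barcodes. UMIs were summed per library and class and scaled to CPM. A library with 0 UMIs was set to 3, and no ratio was formed with 3 or fewer in both. Levels carry exact Poisson, ratios exact binomial, shares Clopper-Pearson and their differences Newcombe intervals; differences of log2 ratios use a normal interval. The ratios and their intervals were tested on simulated independent Poisson counts only. These leave out the clustering of UMIs in single cells, so that check cannot show whether the intervals hold for such genes.

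The sensor genes, the pathway list, the markers and the rules were chosen with earlier results of these data known. Named pathway genes are, per role, the highest mean CPM and the largest and smallest ratio, to which CGAS, LY96, TLR6 and TREX1 were added after their values were seen. Alternatives covered filters, doublets, scaling (edgeR 4.0.16 TMM in R 4.3.3), cell weighting, class boundaries, depth and thinning. Leaving out leukocyte-marked barcodes, or each gene's UMIs in its 10 highest barcodes with the totals kept, was added after seeing the data.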

Additional observations from a re-analysis of the deposited data

Results flagged for a closer look

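DDX58 and IFIH1 were noted because the order of the cell classes was opposite in the libraries. The log2 ratio of epithelial to mesenchymal cells was 0.69 in 3CK and -0.41 in CNT for DDX58, and 1.13 and -0.62 for IFIH1. These ratios are sums over the whole epithelial class. Its TTR-low cells in CNT had 38.2 CPM of DDX58 against 21.8 CPM in mesenchymal cells, and 7.39 against 6.26 CPM of IFIH1. STING1 was noted because its log2 ratio of 3CK to CNT was 0.71 in epithelial cells (2.27 and 3.71 CPM) and -0.38 in mesenchymal cells (29.5 and 22.6 CPM). These differences were not tested, since each group is 1 library.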

How the results depend on the processing

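No paired analysis was possible because each group holds 1 library and no test was made, and for the same reason no replicate could be left out. Over all kept cells, 100 alternative log2 ratios of the 10 sensors were computed: 85 stayed within the counting interval, 0 had the opposite sign and 4 lay on the other side of 2-fold. In epithelial cells these numbers were 118, 0 and 2 of 130, and in mesenchymal cells 108, 3 and 8 of 128; the 3 sign differences were all NOD1, whose lowest value was -0.51. Giving each cell equal weight lowered the epithelial TLR3 ratio to 1.56. TMM scaling moved the median of all genes in mesenchymal cells from -0.21 to -0.03.

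Requiring 10 CPM left 3 sensors higher in 3CK over all cells and 3 in epithelial cells, 0 lower in epithelial than mesenchymal cells of CNT, 1 higher and 1 lower in 3CK, and 0 pathway genes lower in mesenchymal cells. That last count was 1 with TMM and 1 with equal cell weight. Sensors higher in epithelial cells of CNT numbered 1 with no filter, a doublet rate of 5%, deep barcodes or epithelial cells limited in collagen, and 2 with stricter class boundaries. Without leukocyte-marked barcodes 1 pathway gene was lower over all cells and 1 in epithelial cells. With each gene's UMIs in its 10 highest barcodes taken off, 3 sensors were higher in mesenchymal cells, where ZBP1 and NOD2 could not stay counted. Cells with 3 or more sensors made up 1.58% of CNT and 28.9% of 3CK when thinned to 10000 UMIs, and 19.0% and 65.2% without thinning. Depth limits ZBP1 and NOD2 in CNT and every mesenchymal value of TLR2, NOD2 and ZBP1.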
